A study of Homo sapiens with 6 samples.

Results

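The sirtuins and the enzymes that supply their substrate NAD were followed in Huh-7 cells, an established human hepatocellular carcinoma line, with and without metformin. The 10 genes were SIRT1 to SIRT7, all 7 human sirtuins, and NAMPT, NMNAT1 and NADSYN1, 3 enzymes of NAD synthesis. They were chosen by name and matched through their Ensembl gene IDs, and all 10 were found among the 35840 genes of the expression table. The rule that picked them used no measured value, though earlier results of these data were known.

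RNA from cultures of this single line was sequenced as 6 libraries. The 3 control libraries (replicates 4 to 6) came from cells without metformin (0 mM). The 3 metformin libraries (replicates 1 to 3) came from cells with metformin, a biguanide used against type 2 diabetes. The time was 48 h for both groups. The study's methods give 20 mM for the treated group and serum starvation of all cells beforehand, and a different concentration stands elsewhere in its text. Whether the libraries of a group came from separate cultures is not given, so the p-values measure only the spread between these libraries.

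Each library held 17192221 to 18464783 fragments (read pairs or reads assigned to genes), and its values were deposited as FPKM, the fragments of a gene scaled for its exon length and for the library's total. Hepatocyte and hepatoma markers were present: all 8 listed, ALB and AFP among them, lay above 1 FPKM, with a summed level of 2440 to 2573 FPKM in control and 1229 to 1423 FPKM in metformin libraries, and 7 of them fell. Of 4 fibroblast markers 3 had a mean over the 6 libraries above 1 FPKM and fell (sum 105 to 117 against 35.9 to 48.9 FPKM). DCN was at or near 0. Most of the sum was LUM, with 111, 99.0 and 108 FPKM in control and 33.9, 39.1 and 45.9 FPKM in metformin libraries. COL1A1 read only 0.730, 0.871 and 0.809 FPKM in metformin libraries. It passed the filter of 1 FPKM described below only through the control group, which favours a fall. All 3 endothelial markers (sum 0.30 to 0.49 against 0.35 to 0.45 FPKM) and all 4 leukocyte markers (0.0402 to 0.176 against 0.206 to 0.343 FPKM) stayed below 1 FPKM, with CD68 at 0 in every library. Among all genes tested as described below, 44.1% fell. The part of these marker shifts in the results was not tested. In bulk RNA of this single line, fewer cells expressing a gene and less of its RNA per cell cannot be told apart.

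Sirtuins remove acetyl and other acyl groups from lysines and use up a molecule of NAD in each round, releasing nicotinamide. NAMPT, which sets the pace of the salvage route, joins nicotinamide to a ribose phosphate to give nicotinamide mononucleotide, and the NMNAT enzymes turn this into NAD. NADSYN1 adds the amide group in the last step of the routes that start from tryptophan and from nicotinic acid. The liver uses all 3 routes, and sirtuins there are known for tuning glucose output, fatty acid oxidation and the urea cycle to the fed or fasted state.

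The promoters of 3 members are shown because these genes had the largest rises and the largest fall of those described below. The windows come from RefSeq (GRCh38.p14), each 300 bases long, from 250 before to 50 after a transcript start, and 9 of the 10 members had an entry, with 12 windows. Capitals mark CACGTG (an E-box, its own reverse complement) and GGGCGG or its reverse complement CCGCCC (a GC box), which do not overlap each other. The SIRT1 window is chr10:67884406-67884705 on the plus strand, the NAMPT window chr7:106284934-106285233 on the minus strand and the SIRT3 window chr11:236882-237181 on the minus strand.
SIRT1: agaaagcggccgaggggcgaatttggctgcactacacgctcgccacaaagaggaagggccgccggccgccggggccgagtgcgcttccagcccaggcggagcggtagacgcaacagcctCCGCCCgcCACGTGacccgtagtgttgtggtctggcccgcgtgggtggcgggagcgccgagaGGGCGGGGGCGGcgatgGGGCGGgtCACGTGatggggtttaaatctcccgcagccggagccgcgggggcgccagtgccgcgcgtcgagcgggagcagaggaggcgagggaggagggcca
NAMPT: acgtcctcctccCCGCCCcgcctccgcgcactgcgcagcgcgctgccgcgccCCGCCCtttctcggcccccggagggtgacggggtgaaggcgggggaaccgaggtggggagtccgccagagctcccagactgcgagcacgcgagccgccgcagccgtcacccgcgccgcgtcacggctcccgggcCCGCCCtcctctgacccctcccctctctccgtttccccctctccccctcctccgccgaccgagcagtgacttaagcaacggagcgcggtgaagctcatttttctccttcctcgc
SIRT3: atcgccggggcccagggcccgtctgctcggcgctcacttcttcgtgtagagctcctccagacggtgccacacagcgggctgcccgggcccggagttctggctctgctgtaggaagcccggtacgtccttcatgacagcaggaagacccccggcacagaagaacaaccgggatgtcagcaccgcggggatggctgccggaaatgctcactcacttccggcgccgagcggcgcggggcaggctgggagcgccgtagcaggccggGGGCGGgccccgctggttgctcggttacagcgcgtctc
The SIRT1 window held 2 E-boxes and 4 GC boxes, the NAMPT window 3 GC boxes and the SIRT3 window 1 GC box. Among the 9 matched members an E-box stood only in the SIRT1 window, and 7.26% of all 35116 windows of the same length held one. A GC box stood in the windows of 7 of the 9 members and in 9 of their 12 windows, against 45.0% of all windows. The 12 windows held 42.3 to 76.7% G and C, and the SIRT1, NAMPT and SIRT3 windows 72.7, 73.0 and 69.3%. The median over all windows was 58.7%. The part of base composition in the GC box matches was not tested. These matches describe letters and not binding.

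Metformin libraries held more RNA of SIRT1 and NAMPT, by 2.61 and 2.22 times, and smaller rises of SIRT7 and SIRT2. The mitochondrial sirtuins SIRT3 and SIRT5 and the nuclear NAD-forming enzyme NMNAT1 fell to between 0.575 and 0.655 of their control means. SIRT6 and NADSYN1 did not pass the test, and SIRT4 was too low to be tested. The test was limma on log2(FPKM + 1), run on the 13094 genes whose mean reached 1 FPKM in control or in metformin libraries, and p-values were adjusted by the method of Benjamini and Hochberg. A gene counted as changed at an adjusted p under 0.05 and as a differentially expressed gene (DEG) if its log2 fold change was also beyond 1 in size. Fold changes on this scale understate the change of low genes.

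Of the 9 members tested, 4 rose and 3 fell, so 7 changed. Over all genes tested 28.9% rose, 44.1% fell and 73.0% changed, so a share of 7 in 9 is near the background. The groups did not overlap for 7 of the 9, against 76.7% of all genes. SIRT1 and NAMPT were upregulated DEGs, a class that held 4.88% of all genes. The median log2 fold change was 0.06 over the 9 members and -0.14 over all genes. The study itself listed SIRT1 among its upregulated genes from these same libraries, so its direction here is not independent evidence.

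**Figure D1:**
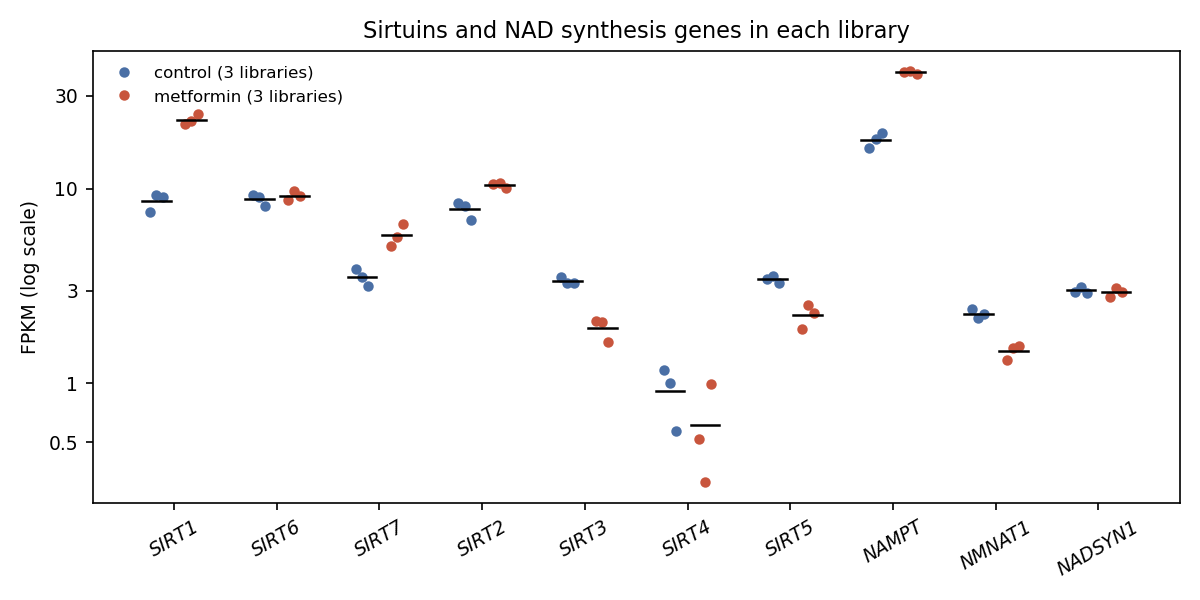
FPKM (log scale) of each of the 10 members in the 6 libraries, with points for libraries and a bar for the mean of each group. The metformin points lie above all control points for SIRT1, SIRT7, SIRT2 and NAMPT and below them for SIRT3, SIRT5 and NMNAT1, while SIRT6, SIRT4 and NADSYN1 overlap.

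SIRT1 (ENSG00000096717, chr10:67884656-67918390, plus strand, GRCh38), the nuclear deacetylase of histones and of transcription regulators such as FOXO proteins, read 7.64, 9.31 and 9.11 FPKM in control and 21.5, 22.4 and 24.2 FPKM in metformin libraries. The lowest metformin library stood above the highest control library by more than the whole control range. The mean rose from 8.69 ± 0.915 to 22.7 ± 1.38 FPKM (SD, n = 3 each), a log2 fold change of 1.29 (SE 0.084, 95% interval 1.10 to 1.49, limma adjusted p = 1.19e-05). These means rest on 2075 control and 5468 metformin fragments in all.

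SIRT7 (ENSG00000187531, chr17:81911939-81921323, minus strand), the nucleolar sirtuin tied to transcription of ribosomal RNA genes, read 3.89, 3.51 and 3.16 FPKM in control and 5.07, 5.66 and 6.60 FPKM in metformin libraries. The groups did not overlap, and the metformin libraries spread more widely. The mean rose from 3.52 ± 0.365 to 5.78 ± 0.770 FPKM (SD, n = 3 each), with a log2 fold change of 0.58 (SE 0.10, limma adjusted p = 0.00141). Exons of SIRT7 and MAFG share 105 bases on the same strand, 1.71% of the SIRT7 exon length, and fragments there could be counted for either gene.

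SIRT6 (ENSG00000077463, chr19:4174109-4182566, minus strand), which deacetylates histones at telomeres and at genes of glycolysis, read 9.24, 9.05 and 8.20 FPKM in control and 8.77, 9.70 and 9.22 FPKM in metformin libraries. The groups overlapped, with means of 8.83 ± 0.554 and 9.23 ± 0.463 FPKM (SD, n = 3 each). The log2 fold change was 0.06 with a 95% interval of -0.10 to 0.21 (limma adjusted p = 0.453). With the libraries scaled by TMM or median-of-ratios factors, which move the median of all genes up by 0.15 and 0.14, it became 0.21 and 0.20 and passed the test (limma adjusted p = 0.0175 and 0.0217).

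SIRT2 (ENSG00000068903, chr19:38878555-38899862, minus strand), the mainly cytosolic sirtuin that deacetylates tubulin, read 8.49, 8.19 and 6.94 FPKM in control and 10.6, 10.7 and 10.1 FPKM in metformin libraries. Every metformin library was higher than every control library. The means were 7.87 ± 0.819 and 10.5 ± 0.302 FPKM (SD, n = 3 each), a ratio of 1.33 and a log2 fold change of 0.37 (SE 0.078, 95% interval 0.19 to 0.55, limma adjusted p = 0.00350).

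SIRT3 (ENSG00000142082, chr11:215030-236931, minus strand), the main deacetylase of mitochondrial proteins, read 3.51, 3.29 and 3.28 FPKM in control and 2.09, 2.06 and 1.64 FPKM in metformin libraries. The control libraries lay close together and all above the metformin libraries. The mean fell from 3.36 ± 0.130 to 1.93 ± 0.252 FPKM (SD, n = 3 each), a log2 fold change of -0.58 (SE 0.085, 95% interval -0.77 to -0.38, limma adjusted p = 0.000586). After quantile normalization it was -0.32 and still passed.

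SIRT5 (ENSG00000124523, chr6:13574227-13615158, plus strand), which removes succinyl, malonyl and glutaryl groups, among others from the urea cycle enzyme CPS1, read 3.44, 3.58 and 3.27 FPKM in control and 1.90, 2.54 and 2.30 FPKM in metformin libraries. The groups did not overlap. The mean fell from 3.43 ± 0.157 to 2.25 ± 0.322 FPKM (SD, n = 3 each), a log2 fold change of -0.45 (SE 0.090, limma adjusted p = 0.00264). Quantile normalization left -0.21 with limma adjusted p = 0.0477, close to the threshold. Of the SIRT5 exon length 9.37% overlaps an antisense gene (ENSG00000261071) that has no values in these data. For SIRT2 and SIRT3 the overlap with a neighbour on the other strand is 0.645 and 1.51%. Fragments in these overlaps cannot be told apart unless the counting used strand, which is not given.

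SIRT4 (ENSG00000089163, chr12:120302316-120313249, plus strand), the mitochondrial sirtuin known for restraining glutamate dehydrogenase, was the lowest member. It read 1.17, 1.01 and 0.571 FPKM in control and 0.520, 0.310 and 0.997 FPKM in metformin libraries, from only 25, 22 and 12 against 11, 7 and 21 fragments. The groups overlapped and both means lay below 1 FPKM, so SIRT4 was outside the test. With no filter on low values its log2 fold change was -0.26 (limma adjusted p = 0.396), and at this depth no difference was detectable.

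**Figure D2:**
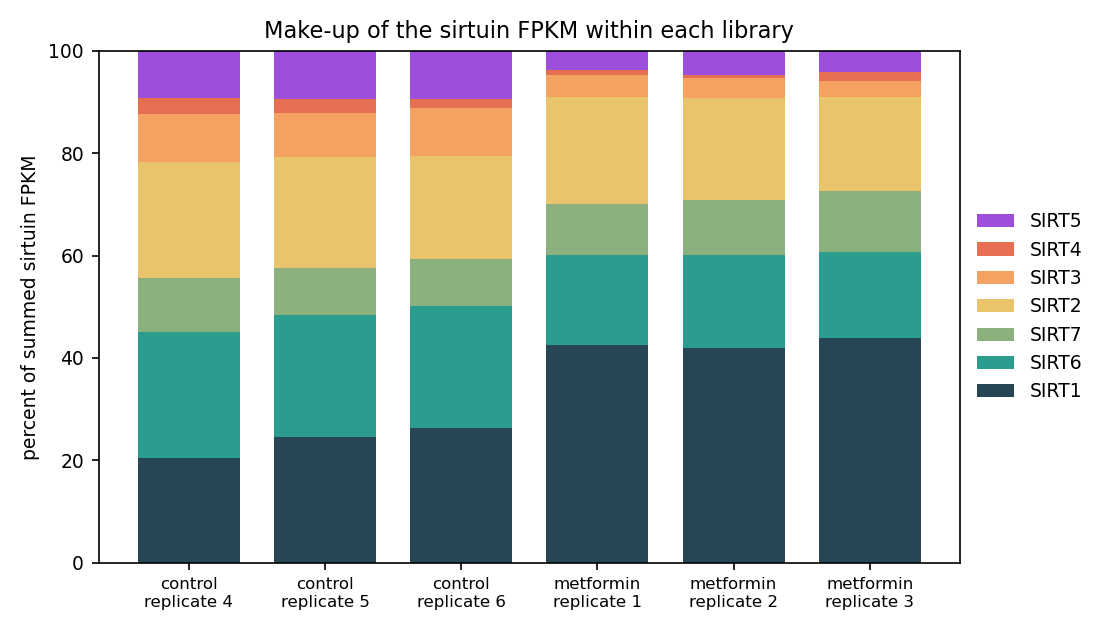
Make-up of the summed sirtuin FPKM, as deposited, within each of the 6 libraries, in percent, stacked by gene. The SIRT1 part takes 20.4 to 26.4% of the bar in control and 42.0 to 43.9% in metformin libraries, and the parts of SIRT3, SIRT4 and SIRT5 together shrink from 20.6 to 21.7% to 8.95 to 9.21%.

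Because a share within a library does not change when the whole library is scaled by a single factor, the make-up of the sirtuin RNA was also compared. Quantile normalization moves genes within a library unequally, and the shares were not computed under it. Such shares do depend on the exon length each gene was divided by, and are given for the values as deposited. The summed FPKM of the 7 sirtuins was 34.5 to 37.9 in control and 50.4 to 55.0 in metformin libraries. SIRT1 held 20.4, 24.5 and 26.4% of it in control and 42.6, 42.0 and 43.9% in metformin libraries, the largest share in every treated library on the deposited scale. The mitochondrial sirtuins together held 21.7, 20.8 and 20.6% in control and 8.95, 9.21 and 8.97% in metformin libraries. SIRT6, whose own FPKM overlapped between groups, went from 23.7 to 24.7% down to 16.7 to 18.2%, without overlap. A share falls when the sum rises around it, so this is not a fall of SIRT6 RNA. The shares of SIRT2 (20.1 to 22.7 against 18.4 to 21.0%) and SIRT7 (9.14 to 10.4 against 10.1 to 12.0%) overlapped. The ratio of SIRT1 to SIRT3 was 2.18, 2.83 and 2.78 in control and 10.3, 10.9 and 14.8 in metformin libraries. With 3 libraries against 3, an exact permutation test of a single ratio cannot go below 0.1 (two-sided), and these ratios are given as descriptions.

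The order of the sirtuins by level rests on the exon length the values were divided by. On the deposited scale, which uses all annotated exons of a gene, SIRT6, SIRT1 and SIRT2 led in control with means of 8.83, 8.69 and 7.87 FPKM and overlapping ranges. SIRT7, SIRT5 and SIRT3 followed with 3.52, 3.43 and 3.36 FPKM and did not differ beyond their spread. Divided by the length of the canonical transcript alone, SIRT2 led in control with 26.3 in the unit of FPKM, ahead of SIRT6 with 15.4, SIRT7 with 12.5 and SIRT1 with 9.63. In metformin libraries SIRT2 stayed ahead of SIRT1 on that scale, 34.9 against 25.1, whereas SIRT1 led on the deposited scale. For a single gene the ratio between the groups is the same on both scales, but the shares of the sirtuin sum are not.

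NAMPT (ENSG00000105835, chr7:106248298-106285966, minus strand) was the most abundant member on either scale. It read 16.2, 18.1 and 19.3 FPKM in control and 39.9, 40.1 and 38.9 FPKM in metformin libraries, with a gap between the groups several times the range within either. The mean rose from 17.9 ± 1.57 to 39.7 ± 0.675 FPKM (SD, n = 3 each), a log2 fold change of 1.11 (SE 0.068, 95% interval 0.95 to 1.27, limma adjusted p = 9.67e-06), from 8476 and 19029 fragments. NAMPT has a near-identical processed copy, the pseudogene NAMPTP1 on chromosome 10, and the counting could have split reads between them. NAMPTP1 was listed with 131, 164 and 146 fragments in control and 310, 323 and 283 in metformin libraries. These were 4.86 to 5.62% and 4.66 to 4.96% of the NAMPT fragments, so the copy rose with the gene, and how reads were divided between them is not known. A gene on the other strand (ENSG00000273320) overlaps 2.31% of the NAMPT exon length, where fragments are uncertain unless the counting used strand.

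NMNAT1 (ENSG00000173614, chr1:9943428-9985501, plus strand), the nuclear enzyme that turns nicotinamide mononucleotide into NAD, moved the other way. It read 2.41, 2.16 and 2.28 FPKM in control and 1.32, 1.53 and 1.56 FPKM in metformin libraries, without overlap. The mean fell from 2.29 ± 0.125 to 1.47 ± 0.132 FPKM (SD, n = 3 each), a log2 fold change of -0.41 (SE 0.079, limma adjusted p = 0.00224). The call was lost after quantile normalization, where the log2 fold change was -0.13 (limma adjusted p = 0.177), and on rebuilt fragments with voom it was -0.64. Another annotated gene (ENSG00000241326) shares 9.46% of the NMNAT1 exon length on the same strand. It has no values in these data, and how fragments there were counted is not known. The ratio of NAMPT to NMNAT1 within a library was 6.71, 8.36 and 8.45 in control and 30.3, 26.3 and 24.9 in metformin libraries.

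NADSYN1 (ENSG00000172890, chr11:71453109-71524107, plus strand) read 2.95, 3.15 and 2.92 FPKM in control and 2.77, 3.10 and 2.96 FPKM in metformin libraries. The groups overlapped, and the log2 fold change was -0.02 with a 95% interval of -0.18 to 0.14 (limma adjusted p = 0.775). Its sign depended on the scaling: it was 0.22 after quantile normalization, where it passed the test (limma adjusted p = 0.0155), and 0.10 and 0.11 with median-of-ratios and TMM factors, where it did not. The deposited scale divides NADSYN1 by 16263 exon bases, against 2679 in its canonical transcript, so its level in control was 3.01 FPKM on the deposited and 18.2 on the canonical scale.

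**Figure D3:**
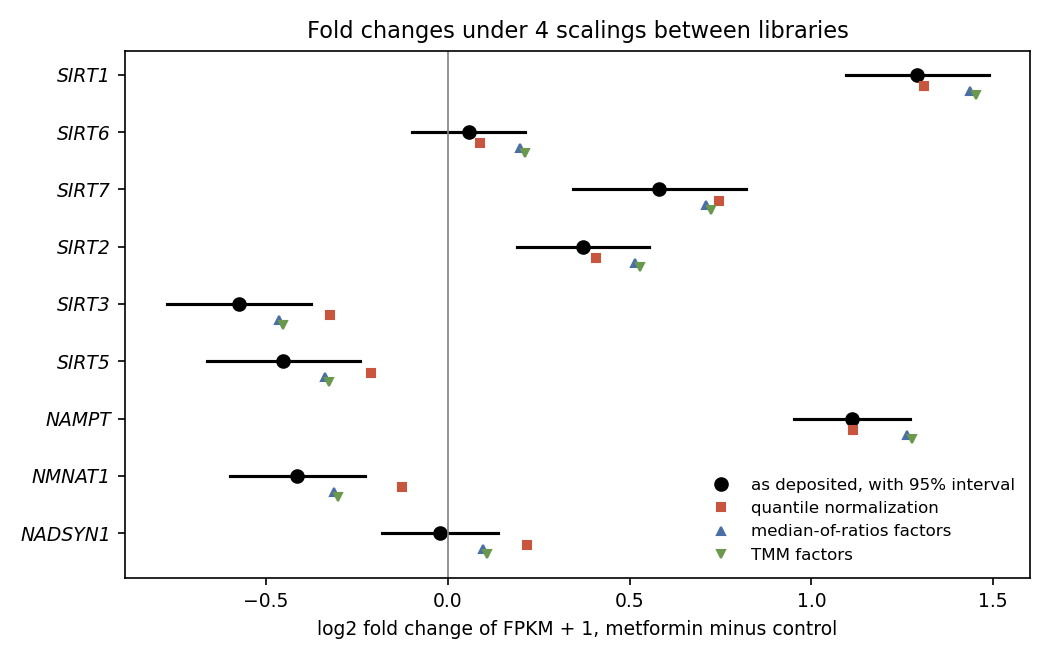
Log2 fold change of FPKM + 1 (metformin minus control) of the 9 tested members, as black points with 95% intervals for the values as deposited and as small symbols under quantile, median-of-ratios and TMM scaling, with a grey line at 0. As deposited, SIRT1 and NAMPT lie beyond 1, SIRT7 and SIRT2 above 0, SIRT3, SIRT5 and NMNAT1 below it, and the intervals of SIRT6 and NADSYN1 span it. Under the other scalings NADSYN1 lies to the right of 0, and NMNAT1 moves to -0.13 after quantile normalization.

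Other genes of NAD metabolism are described by route, with means ± SD over the 3 libraries of a group. In the other salvage, nicotinic acid, NADP and transport enzymes 8 of 10 were tested. Of these 2 rose and 3 fell, against 28.9 and 44.1% of all genes tested (median log2 fold change -0.13, against -0.14 over all genes). The gene that rose beside NADK was NMNAT3, the mitochondrial counterpart of NMNAT1 (log2 fold change 0.32, limma adjusted p = 0.0303). NMNAT3 passed the filter of 1 FPKM only through the metformin group (means 0.734 in control and 1.16 FPKM in metformin libraries), which favours a rise. Its log2 fold change was 0.62 with a pseudocount of 0.1, 0.72 after quantile normalization and 0.69 with voom. The call was lost with no filter and without control replicate 4 or any 1 of the 3 metformin replicates. NADK, the cytosolic kinase that makes NADP from NAD, rose from 12.9 ± 0.765 to 19.8 ± 0.340 FPKM (log2 fold change 0.58, limma adjusted p = 8.02e-05). PNP, which frees nicotinamide from nicotinamide riboside, fell from 6.96 ± 0.376 to 3.42 ± 0.581 FPKM (log2 fold change -0.86, limma adjusted p = 0.000197). NMRK1, the kinase that lets nicotinamide riboside enter the pool, fell from 2.49 ± 0.0504 to 1.26 ± 0.133 FPKM (log2 fold change -0.63, -0.34 after quantile normalization and -0.99 with voom, limma adjusted p = 0.000245).

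SLC25A51, the carrier of NAD into mitochondria, had a weaker fall, from 1.89, 1.52 and 1.30 to 0.851, 1.16 and 0.990 FPKM (log2 fold change -0.36, limma adjusted p = 0.0234). That call was lost with no filter, under quantile, median-of-ratios or TMM scaling (log2 fold changes -0.03, -0.27 and -0.26), and without control replicate 4, control replicate 5, metformin replicate 1 or metformin replicate 3. NADK2, the mitochondrial NAD kinase, read 46.6, 37.6 and 45.5 FPKM in control and 28.9, 39.0 and 71.9 FPKM in metformin libraries. Its treated libraries spread on both sides of the control libraries, and it did not pass (limma adjusted p = 0.979).

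All 3 tested enzymes of synthesis from tryptophan fell (of 9 listed, 8 in the table, median log2 fold change -0.68), where 44.1% of all genes tested fell and their median was -0.14. HAAO, which makes the precursor of quinolinate, went from 5.70, 5.31 and 5.31 to 1.95, 2.11 and 2.11 FPKM (log2 fold change -1.08, SE 0.064, limma adjusted p = 8.75e-06), and was a downregulated DEG, a class that held 10.7% of all genes. AFMID, the formamidase upstream of it, fell from 5.79 ± 0.498 to 3.24 ± 0.420 FPKM (log2 fold change -0.68, limma adjusted p = 0.000423). QPRT, which carries quinolinate into the NAD pool, fell from 58.6 ± 0.736 to 36.5 ± 1.54 FPKM (log2 fold change -0.67, limma adjusted p = 1.9e-05). The ratio of QPRT to NAMPT FPKM, enzymes that feed the NAD pool from different sources, was 3.60, 3.21 and 3.08 in control and 0.872, 0.916 and 0.974 in metformin libraries, so on the deposited scale QPRT read above NAMPT in every control and below it in every metformin library.

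**Figure D4:**
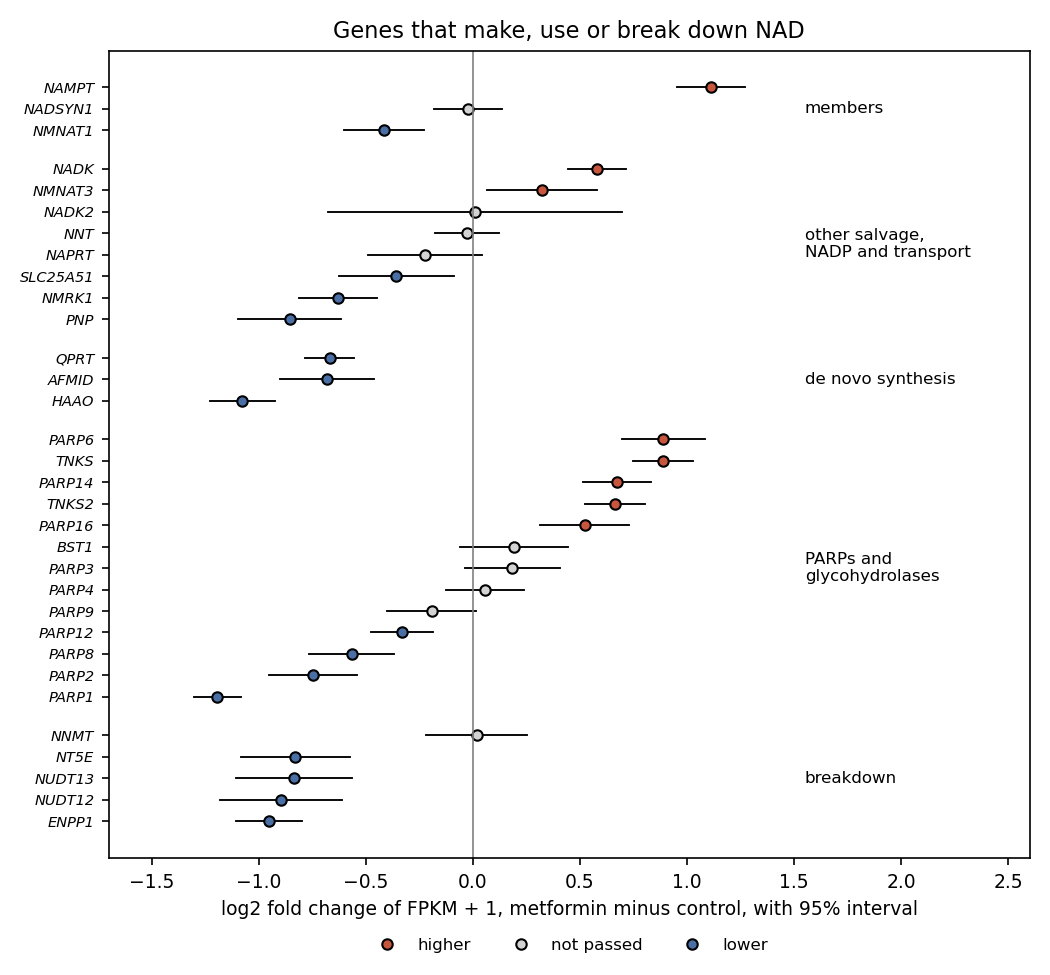
Log2 fold changes of FPKM + 1 (metformin minus control) with 95% intervals for the tested genes that make, use or break down NAD, grouped by route and coloured by the test. NAMPT stands at 1.11 on the right, PARP1 at -1.19 and HAAO at -1.08 on the left, and all 3 genes of de novo synthesis lie below 0.

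Sirtuins share NAD with the PARP enzymes, which spend it on ADP-ribose chains or single units, and with the glycohydrolases. Of 18 such genes 13 were tested, 5 rose and 4 fell, against 28.9 and 44.1% of all genes tested. The median log2 fold change of the 13 was 0.18, against -0.14 over all genes. With TMM factors 8 rose and 4 fell, where 4895 of all 13039 genes rose and 4661 fell. Beside those described here, TNKS2, PARP14 and PARP16 rose and PARP8 (log2 fold change -0.57, and -0.34 after quantile normalization) and PARP12 (-0.33, and -0.18 with TMM factors) fell. PARP1, the DNA-break sensor and the highest of them in FPKM, fell from 85.1, 79.9 and 80.3 to 35.1, 36.0 and 34.5 FPKM (log2 fold change -1.19, SE 0.047, limma adjusted p = 2.3e-06). PARP2, its relative in DNA repair, fell from 11.4 ± 0.703 to 6.39 ± 0.776 FPKM (limma adjusted p = 0.000188). TNKS, the tankyrase that modifies telomere and axin proteins, rose from 8.42 ± 0.215 to 16.4 ± 0.935 FPKM (log2 fold change 0.89, limma adjusted p = 1.31e-05). PARP6, a transferase of single units, rose from 4.02 ± 0.134 to 8.32 ± 0.922 FPKM (log2 fold change 0.89, limma adjusted p = 5.67e-05). The ratio of PARP1 to SIRT1 FPKM within a library was 11.1, 8.58 and 8.81 in control and 1.63, 1.61 and 1.43 in metformin libraries.

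Of 6 genes that break down nicotinamide or NAD, 5 were tested and 4 fell (median log2 fold change -0.83), against 44.1% of all genes. ENPP1, a cell-surface enzyme that cleaves NAD among other nucleotides, fell from 13.8, 14.9 and 14.0 to 6.35, 7.16 and 7.16 FPKM (log2 fold change -0.95, limma adjusted p = 1.54e-05). NT5E, the cell-surface nucleotidase that acts on nicotinamide mononucleotide, fell from 9.35 ± 0.472 to 4.87 ± 0.867 FPKM, and NUDT12, a hydrolase of NADH, from 7.32 ± 1.22 to 3.46 ± 0.472 FPKM (limma adjusted p = 0.00033 and 0.000391). NUDT13, a mitochondrial relative, fell from 1.06 ± 0.168 to 0.157 ± 0.0923 FPKM on 141 and 21 fragments. NUDT13 passed the filter of 1 FPKM only through the control group, where it was high, which favours a fall. It is counted among the 4. Its log2 fold change of -0.83 (limma adjusted p = 0.000437) became -0.41 after quantile normalization, -2.23 with a pseudocount of 0.1 and -2.82 with voom. NNMT, which methylates nicotinamide, had means of 1.33 and 1.37 FPKM and did not pass (95% interval of the log2 fold change -0.22 to 0.25, limma adjusted p = 0.876). After quantile normalization NNMT did pass as higher, with a log2 fold change of 0.35 (limma adjusted p = 0.0135).

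Of 7 genes known to regulate SIRT1, 6 were tested, 2 rose and 1 fell, against 28.9 and 44.1% of all genes tested. The median log2 fold change of the 6 was -0.03, against -0.14 over all genes. RPS19BP1, also called AROS, an activator bound to SIRT1, rose from 8.77, 7.94 and 6.94 to 10.3, 10.4 and 11.3 FPKM (log2 fold change 0.40, limma adjusted p = 0.00376). USP22, a deubiquitinase known to stabilize SIRT1, fell from 58.0 ± 1.34 to 44.9 ± 2.11 FPKM (log2 fold change -0.36, -0.21 under median-of-ratios scaling and -0.19 under TMM, limma adjusted p = 0.000482). SENP1, which strips SUMO from SIRT1, rose from 3.81 ± 0.189 to 4.52 ± 0.214 FPKM (log2 fold change 0.20, limma adjusted p = 0.0255; 0.37, 0.33 and 0.34 under quantile, median-of-ratios and TMM scaling), and its call was lost without control replicate 4, control replicate 6 or metformin replicate 2. CCAR2, the inhibitor also called DBC1, had means of 14.5 and 13.2 FPKM and did not pass (limma adjusted p = 0.144), though it did pass as lower without metformin replicate 1 (log2 fold change -0.18, limma adjusted p = 0.0374).

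Among 12 metabolic enzymes known as substrates of the mitochondrial sirtuins, 11 were in the table, 5 were tested and 4 fell (median log2 fold change -0.98), against 44.1% of all genes. GLUD1, the glutamate dehydrogenase on which SIRT3 and SIRT4 act, fell from 138, 134 and 149 to 57.5, 58.1 and 57.2 FPKM (log2 fold change -1.27, limma adjusted p = 2.46e-06). IDH2, the mitochondrial isocitrate dehydrogenase, fell from 62.2 ± 2.78 to 31.2 ± 2.59 FPKM (log2 fold change -0.98, limma adjusted p = 1.72e-05), and PDHA1, a pyruvate dehydrogenase subunit, from 47.3 ± 0.869 to 30.8 ± 0.964 FPKM (log2 fold change -0.60, limma adjusted p = 2.65e-05).

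The list of transcription regulators that SIRT1 deacetylates held 14 symbols, with ARNTL and BMAL1 standing for the same gene. All 13 genes were tested, 5 rose and 3 fell (median log2 fold change -0.11, and 0.05 with TMM factors). Of all genes tested, 28.9% rose and 44.1% fell. Beside those described here, FOXO1 and RELA rose and NR1H4 and PER2 fell. The fall of PER2 (log2 fold change -0.22, limma adjusted p = 0.0332) was lost with no filter, under quantile (0.04), median-of-ratios (-0.11) and TMM scaling (-0.10), and without any 1 of the 3 control replicates, metformin replicate 1 or metformin replicate 2. CRTC2, a coactivator of gluconeogenic genes, rose from 11.8 ± 0.999 to 34.4 ± 1.89 FPKM (log2 fold change 1.47, limma adjusted p = 4.76e-06). PPARGC1A, the coactivator of mitochondrial biogenesis, rose from 0.641 ± 0.112 to 2.65 ± 0.173 FPKM, a log2 fold change of 1.16 (limma adjusted p = 2.45e-05) that was 1.90 with a pseudocount of 0.1 and 2.06 with voom. It passed the filter of 1 FPKM only through the metformin group, where it was high, which favours a rise. FOXO3, a stress-response factor, rose from 9.24, 10.2 and 9.94 to 19.3, 17.3 and 20.1 FPKM (log2 fold change 0.88, limma adjusted p = 3.24e-05). SREBF1, which drives lipid synthesis genes, fell from 40.1 ± 3.23 to 22.2 ± 2.51 FPKM (log2 fold change -0.82, limma adjusted p = 0.000144).

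The zinc-dependent histone deacetylases, which need no NAD, were set beside the sirtuins. Of 11 listed 9 were tested, 4 rose and 2 fell, against 28.9 and 44.1% of all genes tested. The median log2 fold change of the 9 was 0.13. With TMM factors 5 rose and neither fall passed, where 4895 of all 13039 genes rose and 4661 fell. The listed genes that fell were HDAC1 (log2 fold change -0.30, -0.13 with TMM factors, limma adjusted p = 0.00202 and 0.0608) and HDAC8 (-0.22, limma adjusted p = 0.0151). The HDAC8 call was lost under quantile, median-of-ratios and TMM scaling (-0.07, -0.09 and -0.08) and without control replicate 5. HDAC5, a class IIa enzyme, rose from 8.47, 9.19 and 8.20 to 19.5, 18.4 and 17.3 FPKM (log2 fold change 1.01, limma adjusted p = 1.27e-05), a ratio of means of 2.13 beside the 2.61 of SIRT1. HDAC7, of the same class, rose from 2.08 ± 0.258 to 3.91 ± 0.215 FPKM (log2 fold change 0.68, limma adjusted p = 0.000257), and HDAC11 from 2.51 ± 0.151 to 4.04 ± 0.650 FPKM (log2 fold change 0.51, limma adjusted p = 0.00299). HDAC6, which acts on tubulin as SIRT2 does, rose from 15.3 ± 0.281 to 20.3 ± 0.672 FPKM (log2 fold change 0.39, limma adjusted p = 0.00031).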

How the data were processed

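RNA of Huh-7 cells was sequenced as 6 libraries, 3 control and 3 metformin, grouped by their treatment labels. The authors removed low-quality and adapter-containing reads, used the genome GRCh38 with Ensembl annotation and deposited FPKM per gene and library. They name Cufflinks 2.1.1 for the comparison of the groups. Which program made the deposited values is not given. As for the aligner, it is not given in any source read here. Whether the counting used strand is not given, so genes with overlapping exons are uncertain. The FPKM were whole multiples of the value of 1 fragment for 31755 of 31777 genes above 0 (99.9%, tolerance 1e-06 for a whole number), which gave each library's total. A fragment in a gene of 1 kb was worth 0.0542 to 0.0582 FPKM. Replicates of a group differed by more than sampling noise (chi-square per degree of freedom 4.03 to 13.2), so each library counted once. Fragment counts cover counting error only.

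Groups were compared with limma 3.58.1 (R 4.3.3), modelling the trend of variance with level on log2(FPKM + 1) for genes whose mean reached 1 FPKM in control or in metformin libraries. P-values were two-sided and adjusted over all 13094 genes (Benjamini-Hochberg). The study's own test, run with Cufflinks, needs reads. The 14 alternatives were a pseudocount of 0.1, no filter, a mean of at least 5 FPKM, quantile normalization, median-of-ratios factors, TMM factors, voom on rebuilt fragments (at least 10 in 3 libraries), no trend, and leaving out each of the 6 libraries. The text names all members and, from each other list, up to 4 genes that passed with the largest fold changes, and NADK2, NNMT, CCAR2 and genes given by name only, chosen after their values were seen. A gene that the rule names is counted in its list but not reported here. Members and lists were chosen with earlier results of these data known. Gene positions are from GENCODE 44, which held 35450 of the 35840 IDs, and promoters from RefSeq. Means are given ± SD. Scripts were tested on simulated data.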

Additional observations from a re-analysis of the deposited data

How the results depend on the processing

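No paired analysis was possible because the groups share no replicate numbers. Over the 14 alternatives the 9 tested members had 122 values, of which 114 kept direction and side of the threshold, and the pathway genes that passed, with NADK2, NNMT and CCAR2, had 616, of which 577 did, 29 lost a call, 2 gained one and 8 reversed. PER2 (0.036) and NADK2 (-0.0030) reversed after quantile normalization and CCAR2 with median-of-ratios (0.025) and TMM factors (0.040). Over the leave-one-out fits NADK2 ranged from -0.35 to 0.29 and NNMT from -0.040 to 0.091. SIRT6 passed with median-of-ratios (0.20) and TMM factors (0.21), and NMNAT1 did not pass after quantile normalization (-0.13). NADSYN1 turned positive under quantile, median-of-ratios and TMM scaling (0.22, 0.10 and 0.11), and without control replicate 5 or metformin replicate 1 (0.0026 and 0.010), and ranged from -0.051 to 0.010 over the leave-one-out fits. At a minimum mean of 5 FPKM, 0 members were called lower, because SIRT3, SIRT5 and NMNAT1 were not tested there, and 3191 genes fell, 753 of them as DEGs, among fewer genes tested. DEGs numbered 639 up and 1401 down, 998 and 2422 with a pseudocount of 0.1, 1160 and 3609 with voom, and 924 down after quantile normalization; the cause was not tested. Genes that rose and fell numbered 3784 and 5781, against 4607 and 4547 under quantile, 4780 and 4761 under median-of-ratios and 4895 and 4661 under TMM scaling, which moved the median of all genes by 0.13, 0.14 and 0.15. Leaving out 1 library gave 3451 to 3748 genes up and 5324 to 5583 down, and 4 members up and 3 down each time. SIRT1 then ranged from 1.21 to 1.34, NAMPT from 1.05 to 1.17 and SIRT3 from -0.62 to -0.50. Depth limits SIRT4 most, with 59 and 39 fragments in all.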

Other observations

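Of the listed pathway genes, 22 lay below 1 FPKM in both groups and were outside the test. Of these, 17 had enough fragments for voom, which called 4 higher and 7 lower. Over all 15637 genes in the voom fit, 4087 were called higher and 7214 lower. In the route from tryptophan, TDO2, the liver dioxygenase that opens it, held 57 fragments over the control and 2 over the metformin libraries, and KMO, the monooxygenase further down, 85 and 22 (voom adjusted p = 0.000200). KYNU, the kynureninase of the same route, went the other way, with 203 and 377 fragments (voom adjusted p = 0.000333). ACMSD, which diverts the route away from NAD, held 123 and 47 fragments (voom adjusted p = 0.00539). All of these levels are low, and these genes were chosen after their values were seen.

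The NAD glycohydrolase CD38 read 0.803, 1.06 and 1.09 FPKM in control and 0.261, 0.182 and 0.220 FPKM in metformin libraries, without overlap, from 354 and 80 fragments (voom adjusted p = 8.89e-06). SARM1, the NAD-cleaving enzyme known from axon degeneration, held 382 and 187 fragments (voom adjusted p = 0.000290). PARP10, a transferase of single ADP-ribose units, rose from 123 to 277 fragments (voom adjusted p = 0.000700). These 3 low consumers were likewise picked after the data were seen.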
